A study of Mus musculus with 4 samples.

Results

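Translation initiation factors (eIFs) and elongation factors (eEFs) were examined in intestinal stem cells (ISCs) of young and old mice. The members were the genes whose symbol starts with Eif1, Eif2, Eif3, Eif4, Eif5, Eif6 or Eef, without the Eif2ak kinases and without names that hold a hyphen, and they numbered 65 of the 52459 genes listed. Of these, 56 passed the filter on low values in some pool (above 5 reads and above 1 CPM, the count scaled to library size) and were tested for a difference between ages. The other 9 (Eef1a2, Eef1akmt3, Eif2c5, Eif2s3y, Eif3j2, Eif4e1b, Eif4e3, Eif4ebp3 and Eif5a2) had between 0 and 11 counts in every pool and were not tested. Eif2c5 entered by its spelling. It is an Argonaute-type name, annotated as a long noncoding RNA, and had 0 counts in all pools.

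ISCs came from female wild-type mice of the C57/Bl6 strain at an age of 2 months (ISC_2mth) or 22 months (ISC_22mth). There were 2 pools of 5 animals per age, so that single animals cannot be told apart. Crypt cells were sorted by the SM6 strategy, which combines surface markers such as CD24, CD44, CD166, EPHB2 and EPCAM and leaves out CD31+ and CD45+ cells. Full-length transcript libraries were made by SPIA, an isothermal amplification of cDNA, and the values are raw read counts per gene. Whether the same number in both ages marks a shared day or litter is not given, and p-values measure the spread between these pools.

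In the first step of translation, eIF1, eIF1A, eIF3 and eIF2, the last loaded with the initiator tRNA, gather on the small ribosomal subunit. The eIF4 factors bind the cap of the mRNA, unwind its leader and bring it to that subunit, eIF5 and eIF5B license start-codon recognition and subunit joining, and eEF1 and eEF2 then deliver aminoacyl-tRNA and move the ribosome. The eIF4E-binding proteins keep eIF4G from binding eIF4E when mTOR is inactive, eIF2B recharges eIF2 with GTP, and phosphorylation of eIF2 under stress blocks that step. Crypt stem cells divide often and feed a fast-renewing epithelium, which makes protein synthesis a large part of their economy.

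Total counts were between 11662654 and 15975698 per pool, of which 62.6% and 65.7% in ISC_2mth and 73.8% and 72.9% in ISC_22mth lay on mitochondrially encoded genes, and between 3852178 and 4593004 counts were left on other genes. The members together took between 60950 and 71998 counts per pool. Counting error is therefore small for the abundant factors, and a floor of 3 counts corresponds to between 0.199 and 0.246 normalized CPM (counting error only, as amplified reads are not independent molecules). ISC markers, Lgr5 and Ascl2 among them, were all detected, and their 8 genes summed to 2859 and 2695 CPM in ISC_2mth and 2699 and 2906 CPM in ISC_22mth. The 7 Paneth cell markers summed to 1048 and 831 CPM in ISC_2mth against 2400.0 and 957 CPM in ISC_22mth, and the 7 enterocyte markers to 226 and 344 CPM against 672 and 558 CPM. In each of these 2 lists 3 genes had FDR under 0.05, all higher in ISC_22mth. Goblet cell markers ranged from 1849 to 2506 CPM with overlapping ages, enteroendocrine markers from 27.9 to 127 CPM and tuft cell markers from 3.04 to 8.40 CPM, where Dclk1 was called higher and Il25 was at 0. General epithelial markers summed to between 1248 and 1394 CPM, with none of 6 called. Leukocyte markers summed to 11.5 and 14.0 CPM in ISC_2mth and 21.9 and 21.6 CPM in ISC_22mth. Of these 15 genes 7 were at 0, Cd4 and Adgre1 among them, and Itgam, the 1 that could be tested, was called higher. Endothelial and stromal markers summed to at most 1.56 CPM, with 6 of 10 at 0. The part of these cells in the results below was not tested, and in bulk RNA fewer cells of a type and less RNA per cell cannot be told apart.

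Short stretches show which counts can be read as belonging to 1 gene. Longer reads were cropped to 50 nt before alignment, so a 50-nt stretch that occurs in another transcript cannot place a read. Eef1a1, which encodes the main carrier of aminoacyl-tRNA, shares 40.4% of its 50-nt stretches with transcripts of other genes in GENCODE vM21, and 24.7% with the pseudogene Gm13456. The stretch below from its coding sequence (bases 439 to 488 from the start codon, exon 4, minus strand of chr9:78479985-78480034, GRCm38) is found unaltered in Gm13456, and beside it stands the same stretch of the paralogue Eef1a2, with the 8 bases that differ in capitals.
Eef1a1: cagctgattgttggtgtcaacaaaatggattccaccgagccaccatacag
Eef1a2: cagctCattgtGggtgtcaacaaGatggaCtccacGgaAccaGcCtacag
No 50-nt stretch was shared between Eef1a1 and Eef1a2, between Eif4a1 and Eif4a2, Eif5a and Eif5a2, Eif4g1 and Eif4g3, Eif4e and Eif4e2, Eif2s3x and Eif2s3y, Eif1a and Eif1ax, or Eif1 and Eif1b. By contrast, 90.8% of the stretches of Eif3j2 also occur in Eif3j1 (36.6% in the other direction). Counts of Eif3j1, Eef1g (44.2% shared), Eef1a1, Eif2s3x (34.6%) and Eif4a1 (28.4%) are therefore uncertain, the treatment of multiply aligned reads not being given in the sources used here. The stretches that Eif3d shares (37.2%) are those of Gm17638, which overlaps it on the opposite strand over 2151 bp, so its count depends on the strand setting, also not given.

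The 100 bases before the annotated start are shown for the member that passed the test, for the member of lowest p among those with a negative change, and for 2 members whose window holds motifs, from RefSeq on GRCm38.p6. They are Eif5b (chr1:37997910-37998009, plus strand), Eif4ebp2 (chr10:61452670-61452769, minus strand), Eef2 (chr10:81176531-81176630, plus strand) and Eif3f (chr7:108934315-108934414, plus strand). Capitals mark the E-box CACGTG (the site that MYC-type factors bind), CCAAT and TATAAA, searched on both strands.
Eif5b: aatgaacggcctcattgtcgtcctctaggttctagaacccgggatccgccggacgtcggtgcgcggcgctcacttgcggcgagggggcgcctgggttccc
Eif4ebp2: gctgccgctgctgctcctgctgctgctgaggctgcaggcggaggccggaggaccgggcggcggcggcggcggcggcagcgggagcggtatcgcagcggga
Eef2: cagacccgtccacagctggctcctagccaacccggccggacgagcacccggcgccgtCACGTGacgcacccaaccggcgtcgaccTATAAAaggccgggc
Eif3f: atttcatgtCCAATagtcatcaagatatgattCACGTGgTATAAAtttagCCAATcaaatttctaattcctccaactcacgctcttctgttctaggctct
Promoter sequences were matched for 45 of the 56 members tested. In the 250 bases before the start, 8 of the 45 (17.8%) held CACGTG (Eef2, Eef2k, Eif1b, Eif3f, Eif3k, Eif4a1, Eif4g1 and Eif4h), against 8.47% of the 9438 tested genes with a sequence. CCAAT was held by 22.2% of the members and 36.8% of those genes, TATAAA by 8.89% and 6.5%, the NRF1 motif by 2.22% and 1.74%, and TGACGTCA by 0 of the 45 members and 2.83% of those genes. The windows of Eif5b and Eif4ebp2 held none of the 5 motifs. These counts describe letters in a window and were not tested.

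Eif5b was the 1 member that passed the test, higher in ISC_22mth, and the abundant elongation factors did not pass it. The share of members called was no higher than that of all genes, and Eif5b was not called under total counts. Of the 56 members, 1 had FDR under 0.05 by edgeR's quasi-likelihood test, against 2.26% of all 13692 genes tested. It was higher in ISC_22mth (1.63% of all genes were called in that direction), and no member was called lower (0.628% of all genes). At an unadjusted p under 0.05 there were 10 members, 9 of them higher and 1 lower, against 16.9% of all genes, 9.26% higher and 7.65% lower. Both ISC_22mth pools lay above both ISC_2mth pools for 19 of the 56 members and below them for 9, against 24% and 23.6% of all genes. The median log2 fold change was 0.12 over the members and -0.0049 over all genes tested, and 39 of the 56 members were above 0 against 49.5% of all genes.
Directions and calls depend on the scaling. Unless another fit is named, called and passed the test mean FDR under 0.05 by the quasi-likelihood test after TMM normalization. Values are given after TMM normalization, which sets most genes level, whereas scaling by total counts shifted the median of all genes by age to -0.50, along with the larger mitochondrial share of ISC_22mth. Under total counts 3 of the 56 members were above 0, their median became -0.37, 21 were called lower and 0 higher, and 34% of all genes were called. A scaling moves all genes of a library alike, so values relative to the median of all genes hardly depend on it. Relative to that median the members' median was 0.13 under both scalings, and 0.077 to 0.12 with 1 pool left out. The members' median itself was 0.074 without ISC_22mth replicate 2.

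**Figure D1:**
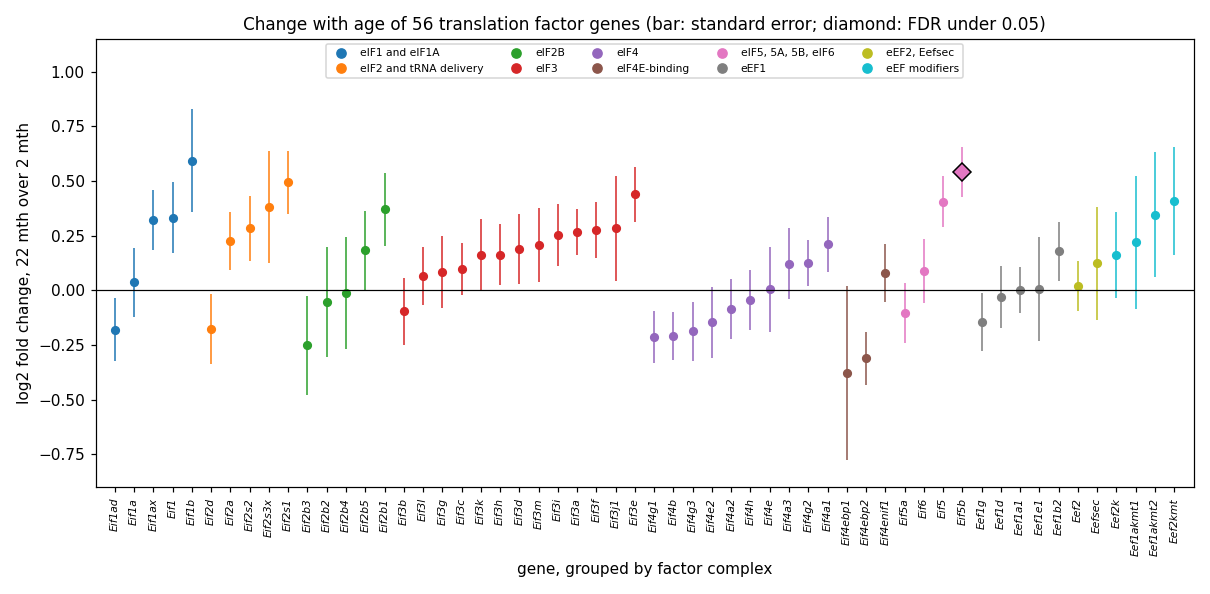
Log2 fold changes of ISC_22mth over ISC_2mth (y axis) for the 56 members tested, grouped and coloured by factor complex along the x axis, with standard errors as bars and a diamond for the gene with FDR under 0.05. Eif5b stands at 0.54, and most groups hold genes on both sides of 0.

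Eif5b encodes the GTPase that joins the large to the small ribosomal subunit at the end of initiation. The gene lies on chromosome 1 from 37998010 to 38055579 (GRCm38, GENCODE vM21, plus strand). Its counts were 2262 and 2601 in ISC_2mth and 3268 and 2816 in ISC_22mth, or 156 and 172 against 247 and 231 normalized CPM. Both old pools were above both young pools by more than the pools of an age lay apart. Expression rose from 164 ± 11.5 to 239 ± 11.8 CPM (mean ± SD, n = 2 pools each), which is 0.54 on the log2 scale (standard error 0.11, 95% interval 0.30 to 0.78, FDR = 0.017). Without ISC_2mth replicate 1 it was 0.47 and no longer passed (FDR = 0.21), in a fit that assumes the lone young pool to vary like the old ones, and with any other pool left out it was between 0.49 and 0.61 with FDR of at most 0.027. ISC_22mth replicate 1 had the highest summed Paneth cell and enterocyte markers, and without it the change was 0.49. The enterocyte markers of ISC_22mth replicate 2 (558 CPM) were also above those of both young pools (226 and 344 CPM). The part of such cells in the change of Eif5b was not tested. Under total counts the log2 fold change was 0.051 (FDR = 0.77), which is 0.55 above the median of all genes. Exons of Eif5b overlap those of Rev1 on the opposite strand over 1643 bp. Rev1 itself had between 89 and 125 counts and a log2 fold change of -0.075 (FDR = 0.91).

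The next lowest p belonged to Eif5, Eif3e and Eif2s1, none of which passed the test. Eif5 encodes the GTPase-activating protein that makes eIF2 hydrolyse its GTP at the start codon, and was at 135 and 144 CPM in ISC_2mth and 191 and 179 CPM in ISC_22mth (log2 fold change 0.41, standard error 0.11, FDR = 0.072). Eif3e, a subunit of the eIF3 scaffold, was at 63.0 and 60.2 CPM against 79.2 and 88.0 CPM (0.44, standard error 0.12, FDR = 0.072). Eif2s1, the subunit of eIF2 that stress kinases phosphorylate, was at 37.2 and 45.1 CPM against 63.7 and 52.1 CPM (0.49, standard error 0.14, FDR = 0.081). In each of the 3 genes the ages did not overlap, as for 47.6% of all genes tested. Limma voom with sample quality weights called Eif5 (FDR = 0.030) and Eif3e (FDR = 0.049) besides Eif5b, and the likelihood ratio test called Eif3e (FDR = 0.044) and Eif2s1 (FDR = 0.044). All genes called were 2.34% by voom and 4.46% by the likelihood ratio test, and the members called 3 of 56 by each.

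**Figure D2:**
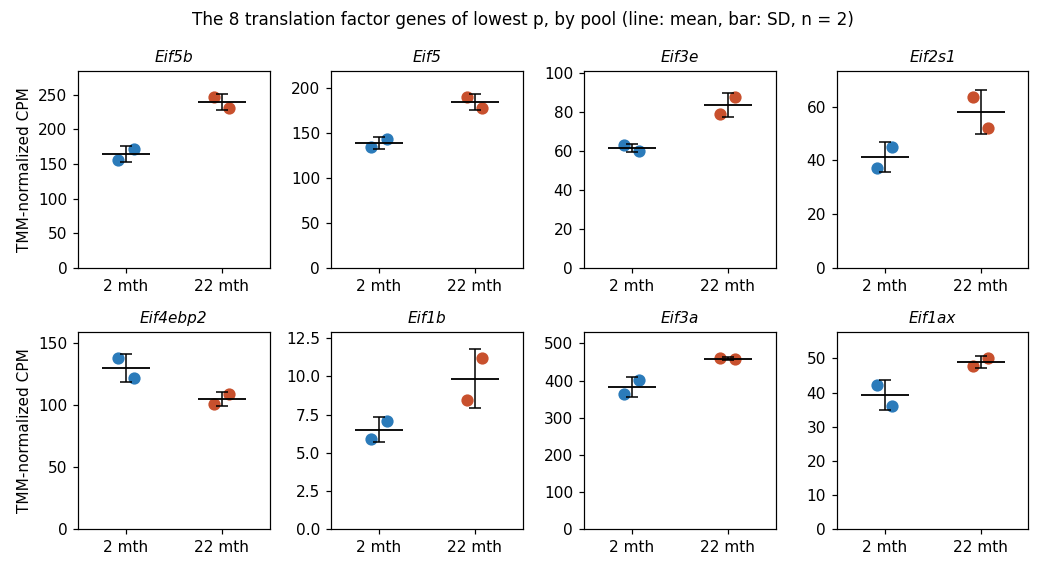
Normalized CPM (y axis, from 0) of the 8 members of lowest p in the pools of each age (x axis), with the mean as a line and the SD as a bar (n = 2). The ages do not overlap in these genes, which follows from the choice by p (47.6% of all genes do not overlap), and Eif4ebp2 is the 1 gene lower at 22 months.

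The factors of start-site selection held no call after TMM normalization, and under total counts Eif1a and Eif1ad were called lower. Eif1 and its paralogue Eif1b encode the factor that guards against wrong start codons, and Eif1a and Eif1ax the factor eIF1A. Eif1b was at 5.93 and 7.09 CPM in ISC_2mth and 8.48 and 11.2 CPM in ISC_22mth, which gave the highest log2 fold change of the members, 0.59, with a wide error (standard error 0.24, FDR = 0.20). Eif1 was at 23.1 and 23.3 CPM against 25.0 and 33.4 CPM (0.33, FDR = 0.31), and its change was 0.11 without ISC_22mth replicate 2. Eif1ax was at 42.3 and 36.1 CPM against 47.7 and 50.2 CPM (0.32, FDR = 0.24), and its autosomal paralogue Eif1a at 45.2 and 57.3 CPM against 60.5 and 44.5 CPM (0.037, FDR = 0.93), with the ages overlapping. Eif1ad, which resembles eIF1A, was the gene of this group below 0, at 30.0 and 29.5 CPM against 26.6 and 26.0 CPM (-0.18, FDR = 0.56), and is named after its value was seen. The 5 genes had a median of 0.32, and 0.32 above the median of all genes under total counts. With offsets for GC content and length the median was 0.21 and 3 of the 5 were above 0.

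Subunits of eIF2 were grouped with the factors Eif2a and Eif2d, which can bring tRNA to the ribosome without eIF2. The 5 genes tested had a median of 0.28 (0.29 above all genes under total counts), with none called after TMM normalization by the quasi-likelihood test. The likelihood ratio test called Eif2s1, as given above. Under total counts Eif2d was called lower, where 34% of all genes were called. Eif2s3x, the X-linked GTP-binding subunit, was at 4.90 and 5.17 CPM against 6.73 and 6.39 CPM (0.38, FDR = 0.48). In these female mice its Y-linked copy Eif2s3y had 0 counts in both ISC_2mth pools and 1 and 0 counts in the ISC_22mth pools. Eif2a was at 89.8 and 95.4 CPM against 95.3 and 122 CPM (0.23, FDR = 0.41), with overlapping ages. Its change was 0.041 without ISC_22mth replicate 2, 0.39 without ISC_22mth replicate 1 and 0.14 with offsets for GC content and length. The 5 genes of eIF2B, the exchange factor of eIF2, had a median of -0.012, which became 0.069 with offsets for GC content and length. Neither fit called any of them, and total counts called Eif2b3 lower. Eif2b1 had the lowest p among them, at 20.4 and 17.1 CPM in ISC_2mth and 26.3 and 22.2 CPM in ISC_22mth (0.37, FDR = 0.27), and the other subunits lay between -0.25 and 0.18.

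The eIF3 complex, the largest initiation factor, is the scaffold on which the small subunit and the mRNA meet. Of its 13 subunits tested, 12 had a log2 fold change above 0 after TMM normalization, against 49.5% of all genes, and 0 under total counts. Their median was then 0.193 above that of all genes, a distance that scaling hardly changes. With 1 pool left out, the ranges of Eif3g (-0.162 to 0.379), Eif3l (-0.081 to 0.2), Eif3k (-0.062 to 0.358), Eif3m (-0.025 to 0.414) and Eif3i (-0.001 to 0.469) reached below 0. Over all 13 subunits the median was 0.19 and the range -0.096 to 0.44, and none was called by the quasi-likelihood test after TMM normalization. Voom and the likelihood ratio test called Eif3e, as given above. Under total counts Eif3b, Eif3c and Eif3l were called lower, where 34% of all genes were called. Eif3a, the largest subunit and the one of highest level per length, was at 363 and 401 CPM in ISC_2mth and 462 and 457 CPM in ISC_22mth (0.27, standard error 0.11, FDR = 0.21). Eif3e and Eif3a stood above their young pools in both old pools, as did Eif3f, Eif3d and Eif3j1, which makes 5 of 13 against 24% of all genes. Eif3j1, the loosely bound subunit whose stretches Eif3j2 shares, was at 6.83 and 6.36 CPM against 9.08 and 6.96 CPM (0.28, FDR = 0.58), and Eif3b was the subunit below 0 (-0.096, FDR = 0.81, from -0.249 to 0.072 with 1 pool left out).

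Among the eIF4 factors 4 of 10 genes tested were above 0 after TMM normalization, with a median of -0.065 and no call. Under total counts the median was -0.060 relative to all genes. There Eif4a2, Eif4b, Eif4e2, Eif4g1, Eif4g2, Eif4g3 and Eif4h were called lower, and 34% of all genes were called. Eif4b, which stimulates the helicase eIF4A, had the lowest p, at 299 and 321 CPM in ISC_2mth and 264 and 273 CPM in ISC_22mth (-0.21, standard error 0.11, FDR = 0.35). The scaffolds Eif4g1 (125 and 136 CPM against 110 and 116 CPM, -0.21, FDR = 0.38) and Eif4g3 (47.1 and 48.4 CPM against 44.1 and 39.6 CPM, -0.19, FDR = 0.50) were also lower in both old pools. In this group 4 genes were lower and 3 higher (Eif4a1, Eif4a3 and Eif4g2) in both old pools, against 23.6% and 24% of all genes. With offsets for GC content and length Eif4g1 and Eif4g3 came to -0.084 and -0.073. Of the helicase paralogues, Eif4a1 was at 84.4 and 102 CPM against 104 and 111 CPM (0.21, FDR = 0.43) and Eif4a2 at 89.4 and 84.4 CPM against 93.6 and 70.2 CPM (-0.085, FDR = 0.81), and neither passed the test. Without ISC_22mth replicate 2 both were above 0 (0.16 and 0.11) and under total counts both below (-0.28 and -0.58). The cap-binding protein Eif4e was at 14.0 and 13.9 CPM against 16.1 and 11.9 CPM (0.0060, 95% interval -0.40 to 0.41), and Eif4e2, which competes with it at the cap, at 20.8 and 24.8 CPM against 20.6 and 20.7 CPM (-0.15, FDR = 0.70).

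Of the 3 Eif4ebp genes, which encode inhibitors of the binding of eIF4G to eIF4E, Eif4ebp2 carried nearly all the counts. It was at 138 and 122 CPM in ISC_2mth and 101 and 109 CPM in ISC_22mth, or -0.31 on the log2 scale (standard error 0.12, 95% interval -0.56 to -0.057) that did not pass the test (FDR = 0.20). Both old pools were below both young pools. Eif4ebp1 was at 2.48 and 3.58 CPM against 1.89 and 2.78 CPM (-0.38, standard error 0.40, FDR = 0.68), and Eif4ebp3 had between 0 and 3 counts per pool. The count of Eif4ebp3 is uncertain. It shares 65.5% of its 50-nt stretches with AC115631.1, which overlaps it on the same strand over 501 bp. Eif4enif1, which carries eIF4E into the nucleus, was at 41.3 and 44.1 CPM against 43.7 and 46.5 CPM (0.080, FDR = 0.81).
Eif5a, whose hypusine-bearing product relieves stalled ribosomes, was at 76.6 and 89.7 CPM against 67.9 and 87.1 CPM (-0.10, FDR = 0.76), and its paralogue Eif5a2 had between 3 and 7 counts per pool. Eif6, which keeps the large subunit from joining too early, had a log2 fold change of 0.088 (FDR = 0.81), and of 0.20 with offsets for GC content and length.

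None of the abundant elongation factors passed the test. Eef1a1 was at 444 and 428 CPM in ISC_2mth and 426 and 447 CPM in ISC_22mth, a log2 fold change of 0.0028 with a 95% interval of -0.22 to 0.22. Eef2, the translocase, was at 626 and 604 CPM against 690 and 556 CPM (0.020, interval -0.22 to 0.26). The exchange factor subunit Eef1b2 was at 213 and 272 CPM against 241 and 307 CPM (0.18, interval -0.11 to 0.46), the pools of an age lying further apart than the ages. With offsets for GC content and length Eef2 came to 0.14 and Eef1b2 to 0.062. Differences within these intervals were not detectable with 2 pools per age. Eef1a2, the paralogue of muscle and nerve, had 0 counts in all pools, which allows at most 0.246 normalized CPM. Over the 5 eEF1 genes tested the median was 0.0028 (-0.49 under total counts, 0.0060 relative to all genes, and -0.097 with offsets for GC content and length). None was called after TMM normalization. Under total counts Eef1a1, Eef1d and Eef1g, like Eef2, were called lower, where 34% of all genes were called. Eefsec, the carrier of selenocysteine tRNA, was at 6.28 and 5.30 CPM against 7.04 and 5.57 CPM (0.13, FDR = 0.85). The enzymes that modify elongation factors had a median of 0.28 over 4 genes tested (0.28 relative to all genes under total counts) and no call. Eef2kmt, a methyltransferase of eEF2, had the lowest p among them (0.41, FDR = 0.42) and overlapping ages, and was at 0.064 without ISC_22mth replicate 2. Eef1akmt1 was at 4.69 and 3.84 CPM against 5.98 and 3.93 CPM (0.22, FDR = 0.77).

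Levels of different factors were compared as normalized CPM per kb of exon. Eef2 (mean of 4 pools 186) and Eef1a1 (175) came first, then Eef1b2 (102), Eif4b (64.7), Eif4g2 (49.9), Eif3a (48.2), Eif3c (36.4) and Eif5a (33.8), and the median of the 56 members was 9.82. Eef2, with 188 and 182 in ISC_2mth and 208 and 167 in ISC_22mth, overlapped Eef1a1, with 178 and 172 against 171 and 179. Within eIF3, whose subunits act in 1 complex, the mean level per kb differed by a factor of 38.4 between Eif3a and Eif3j1 (1.25), whose count is uncertain, and of 60.8 with the length of the longest transcript. The eIF2 subunits Eif2s1 (10.0), Eif2s2 (4.73) and Eif2s3x (1.52) also stood apart. Eif4ebp2 (20.3) was above its target Eif4e (2.33) in every pool. Exonic length counts every annotated exon, so genes with many partial transcripts are understated, and lengths taken from the longest transcript raise the median to 14.0. They also change the order, with Eef1a1 (243) above Eef2 (200.5) and Eif3a (82.1) above Eif4b (75.0) and Eif4g2 (63.5).

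**Figure D3:**
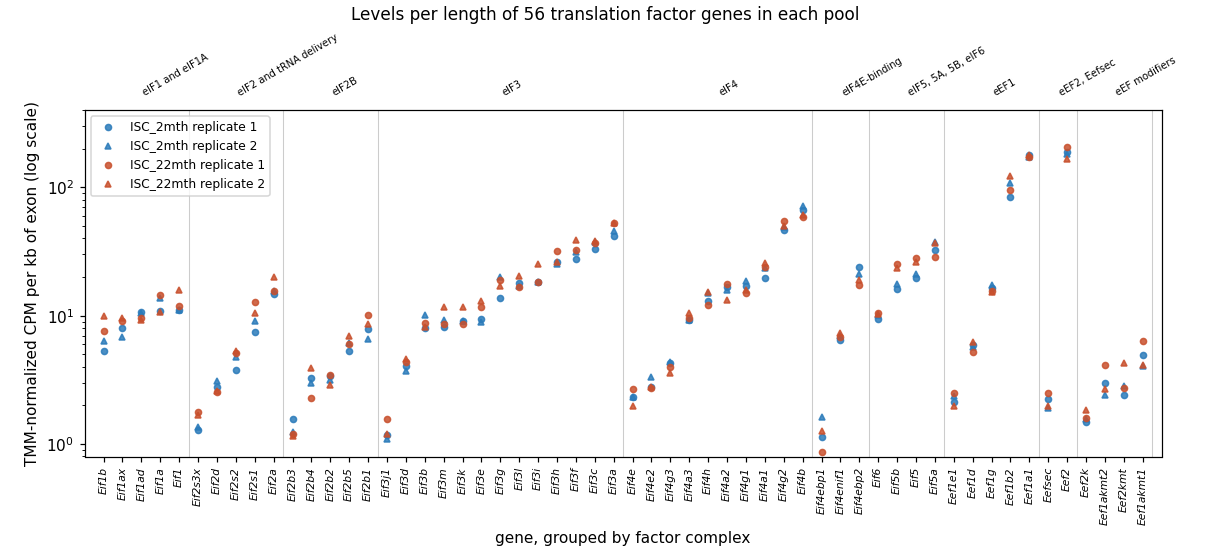
Normalized CPM per kb of exon (y axis, log scale) of the 56 members in each of the 4 pools, grouped by factor complex and ordered by level within a group. Blue marks ISC_2mth and red ISC_22mth, and the spread between genes, from 1.22 for Eif4ebp1 to 186 for Eef2 in the mean, is far wider than that between ages.

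GC content moved with the changes. Across the 56 members, which are not independent replicates and share the 4 libraries, log2 fold change and GC content of the longest transcript had a Pearson r of -0.35 and a Spearman rho of -0.37, against -0.16 and -0.23 over 13236 genes. The 26 members with a GC content under the median of 49.8% had a median log2 fold change of 0.21, and the other 30 of 0.082. The transcripts of Eif3e (36.2% GC), Eif2s1 (40.8%), Eif5 (41.7%) and Eif5b (43.7%) were on the low side, whereas Eif1b (53.8%) and Eif4ebp2 (52.4%) were not. Offsets for GC content and exonic length were fitted to remove such a trend in each library. That r became -0.065 follows from this construction and tests no cause. With the offsets Eif5b had a log2 fold change of 0.51 (FDR = 0.035). Eif5, Eif3e and Eif2s1 had 0.32, 0.37 and 0.37 (FDR between 0.19 and 0.23). Eif1b and Eif4ebp2 then had 0.59 and -0.23, and 1.4% of all genes were called.

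**Figure D4:**
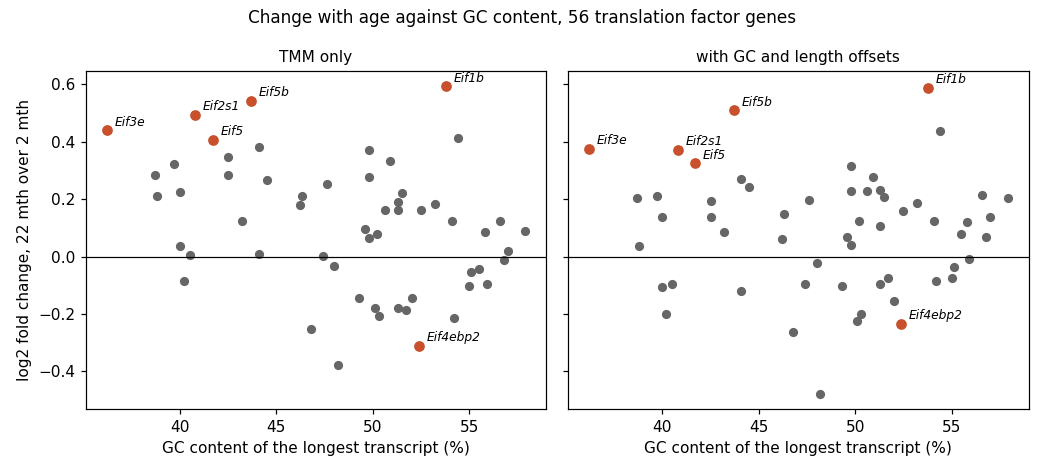
Log2 fold change of ISC_22mth over ISC_2mth (y axis) against the GC content of the longest transcript in percent (x axis) for the 56 members, without (left) and with (right) offsets for GC content and length. Eif5b is at 0.51 on the right. The Pearson r is -0.35 on the left and -0.065 on the right, where the offsets remove the GC trend of each library by construction.

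Other genes of the pathway were counted from fixed lists. Of 42 tested genes that regulate or complete cytosolic translation, 0 were called higher and 1 lower, against 1.63% and 0.628% of all genes, and 26 were above 0 (median 0.078). The gene called was Gcn1l1, whose product activates the eIF2 kinase GCN2 on stalled ribosomes. It was at 28.1 and 28.2 CPM in ISC_2mth and 18.8 and 14.6 CPM in ISC_22mth, which is -0.75 on the log2 scale (standard error 0.17, FDR = 0.022). The call was lost without ISC_2mth replicate 1 (-0.75, FDR = 0.055) and with offsets for GC content and length (-0.47, FDR = 0.20).
None of the 4 kinases of eIF2 was called, and Atf4, the transcription factor translated when eIF2 is phosphorylated, was at 41.3 and 45.3 CPM against 54.3 and 59.2 CPM (0.39, FDR = 0.13). The other lists held no call, and the 2 genes of lowest p stand for each. They were Paip2 (0.42, FDR = 0.11) and Paip1 (0.47, FDR = 0.19) of the partners of poly(A)-binding protein, Abce1 (0.27, FDR = 0.30) and Denr (0.41, FDR = 0.33) of the other initiation factors, and Ltn1 (0.41, FDR = 0.11) and Nemf (0.28, FDR = 0.31) of the rescue factors. The mTORC1 subunit Rptor was at 23.4 and 26.6 CPM in ISC_2mth and 17.9 and 17.9 CPM in ISC_22mth (-0.48, FDR = 0.13), and its activator Rheb at 14.9 and 14.0 CPM against 19.8 and 19.8 CPM (0.45, FDR = 0.18). The ages did not overlap for either gene, as for 47.6% of all genes. The hypusination enzymes Dhps (-0.25) and Dohh (-0.079) both had FDR above 0.8. The 9 members with a terminal oligopyrimidine leader, the tract through which mTOR controls their translation, had a median of 0.020. None was called by the quasi-likelihood test after TMM normalization (Eif3e and Eif3f of lowest p). Voom and the likelihood ratio test called Eif3e. Under total counts Eef1a1, Eef1d, Eef1g, Eef2 and Eif4b were called lower, where 34% of all genes were called. The 47 other members tested had a median of 0.12.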

How the data were processed

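RNA of sorted ISCs from 4 pools was read from 1 end. Per the labels and the study's methods, Trimmomatic (0.30) removed adaptors and low-quality bases, STAR (2.4.2a) placed the reads on GRCm38, and featureCounts summed them over exons of GENCODE vM15 genes. The authors deposited the raw count of each gene. The strand setting is not given in the sources used here. The filter on low values (above 5 reads and above 1 CPM in some pool) left 13692 of 52459 genes. These were normalized by TMM and compared between ages with edgeR (4.0.16, R 4.3.3), glmQLFit and glmQLFTest, no covariate, with Benjamini-Hochberg adjustment over the genes left (FDR, threshold 0.05). Standard errors came from the log2 fold change and F. The biological coefficient of variation was 0.139. Alternatives were limma 3.58.1 (voom with sample quality weights), DESeq2 1.42.0, edgeR's likelihood ratio test, other scalings and filters, a replicate block, lowess offsets (span 0.3, 3 iterations) for GC content and length, and each pool left out. The scripts were tested on simulated data. Members, factor groups and lists were chosen with earlier results of these data known. Named genes are the members called, the member of lowest p and of highest level per length in each group, paralogue pairs, eIF4E-binding proteins, and 2 genes of lowest p per pathway list. Genes outside this rule were named after their values were seen. Positions, GC content and lengths came from GENCODE vM21, matched by symbol, and promoters from RefSeq.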

Additional observations from a re-analysis of the deposited data

How the results depend on the processing

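Eif5b was called under all alternatives except total counts and the fit without ISC_2mth replicate 1. The 309 genes called (223 higher, 86 lower), and the 1 member among them, became 4650 genes (96 higher, 4554 lower) and 21 members (0 higher, 21 lower, median -0.37) under total counts, 554 genes (357, 197) and 3 members without a filter, 611 genes (375, 236) and 3 members by the likelihood ratio test, 197 genes (147, 50) by DESeq2 and 192 genes (141, 51) with offsets for GC content and length. Voom called 3 members. The replicate block gave 623 genes (407, 216) and 4 members, all higher (Eif5b, Eif5, Eif3e, Eif2s1). The numbers were not taken as a pairing, as the young and old pools are of different animals. Deviations of same-numbered pools correlated at -0.00015 over all genes and 0.292 over the members. Whether the numbers mark a shared day is not given and was not tested. Leaving out 1 pool gave 147 to 691 genes (122 to 464 higher, 25 to 248 lower) and 0 to 3 members, all higher. There were 147 genes and 0 members without ISC_2mth replicate 1, 647 genes and 3 members without ISC_22mth replicate 1, and 691 genes and 3 members without ISC_22mth replicate 2. The median level per kb was 9.82 and, with the longest transcript, 14.0. The cause of these shifts was not tested.

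Some signs reversed. Under total counts the log2 fold changes were Eef1a1 -0.49, Eef1akmt1 -0.28, Eef1b2 -0.30, Eef2 -0.48, Eef2kmt -0.0715, Eefsec -0.37, Eif1 -0.16, Eif1a -0.45, Eif1ax -0.18, Eif2a -0.26, Eif2b1 -0.13, Eif2s3x -0.11, Eif3a -0.22, Eif3e -0.053, Eif3j1 -0.21, Eif4a1 -0.28, Eif4e -0.49, Eif4enif1 -0.41 and Eif5 -0.085, and 3 of the 56 members were above 0. Eef1a1 became -0.0011 (RLE), -0.0393 (upper quartile), -0.0012 (DESeq2), -0.0056 (no filter), -0.0031 (edgeR's filterByExpr), -0.0196 (all pools at 10 counts or more) and -0.0966 (GC offsets). Eif4e became -0.0347 (upper quartile), -0.0002 (no filter), -0.0160 (all pools at 10 or more), -0.0054 (voom), -0.0080 (block) and -0.0964 (GC offsets). Eef2 became -0.0214 (upper quartile) and -0.0024 (all pools at 10 or more), and Eif1a -0.0026 (upper quartile) and -0.1075 (GC offsets). With 1 pool left out, values ranged from -0.032 to 0.037 for Eef1a1, -0.144 to 0.167 for Eef2, -0.233 to 0.207 for Eif4e, -0.292 to 0.067 for Eif5a, -0.204 to 0.241 for Eif1a, -0.117 to 0.487 for Eef1akmt1, -0.055 to 0.282 for Eefsec, -0.0067 to 0.362 for Eef1b2 and -0.308 to 0.107 for Eif4a2. Without a change of sign, they moved by over 1.5 times for Eef2kmt (0.064 to 0.696), Eif1 (0.111 to 0.527), Eif1ax (0.205 to 0.441), Eif1b (0.379 to 0.783), Eif2a (0.041 to 0.392), Eif2b1 (0.241 to 0.505), Eif3j1 (0.078 to 0.461), Eif4a1 (0.084 to 0.345), Eif4e2 (-0.265 to -0.019), Eif4ebp1 (-0.679 to -0.097), Eif4enif1 (0.034 to 0.124), Eif4g3 (-0.267 to -0.113) and Eif6 (0.046 to 0.127), none of which passed the test with all 4 pools under TMM. Offsets for GC content and length moved Eefsec to 0.21, Eif3b to -0.0080, Eif3l to 0.040, Eif3m to 0.036, Eif4a2 to -0.20 and Eif4enif1 to 0.12, with none called. Eif4ebp1, with 25 to 54 counts per pool, had a standard error of 0.40, against 0.11 for Eif5b with 2262 to 3268.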

Other observations

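Mitochondria have their own translation factors, which are encoded in the nucleus and were counted from a separate list. Of these 10 genes 0 were called by edgeR's quasi-likelihood test against 2.26% of all genes, 2 had an unadjusted p under 0.05 against 16.9%, 6 were above 0 against 49.5% and the median log2 fold change was 0.10. Guf1, a GTPase related to a bacterial elongation factor, had the lowest p (0.54, standard error 0.15, FDR = 0.072). It was at 23.2 and 29.8 CPM in ISC_2mth and 39.4 and 37.5 CPM in ISC_22mth, and the study's own list of changed genes holds it as higher. Mtrf1, a release factor, was at 3.52 and 3.91 CPM against 5.45 and 5.81 CPM (0.60, standard error 0.28, FDR = 0.29). In both genes the ages did not overlap, as in 47.6% of all genes.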
